A study of Rattus norvegicus with 37 samples.

Results

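Livers of 5 rats that swam after a contusion of the spinal cord were compared with livers of 4 uninjured rats, to ask what still differed from uninjured liver after swimming. The 9 libraries were assigned by their sample titles alone, out of 37 in the whole series. No measured value entered that assignment, although earlier results of these data were known when the groups were chosen. All of the rats were female Sprague-Dawley, an outbred strain. Their age at injury was given as 8 to 9 weeks, for the uninjured rats too, by an estimate from body weight. The swimming rats (CONT SCI + SWIM) received a 25 g-cm contusion at thoracic level T2 and lived in tiny cages, which restrict movement. Their training began on day 10 after the injury and ran on 5 days a week for 8 weeks, and their livers were taken 11.5 weeks after the injury. The uninjured rats (No SCI) were housed in tiny cages too, had no injury and no exercise, and were sampled at the equivalent age. These times are those of the sample labels, whereas the paper gives a later start, a longer training and a later collection for the exercised rats. Injury and swimming therefore cannot be told apart in this comparison, nor can a difference in age at collection. Further groups of the same sample set, used beside them, were contused rats without exercise (CONT SCI, 4 rats), contused rats trained in shallow water walking (CONT SCI + SWW, 5 rats) and rats with a complete transection (TX SCI, 4 rats), all in tiny cages. A second sample set (SCI + In-Cage Activity) held contused rats in tiny cages (CONT SCI + Tiny, 5 rats), contused rats in large cages (CONT SCI + Large, 5 rats) and uninjured rats in standard cages (No SCI + Standard, 5 rats). By the labels, every contused group received the same 25 g-cm contusion and was sampled 11.5 weeks after it. The walking rats had the same training times as the swimming rats. The transected rats were sampled earlier after injury than the contused rats.

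The liver controls blood glucose, makes and exports lipids and plasma proteins, and clears drugs and hormones. Its sympathetic nerves are driven through the thoracic spinal cord, so an injury at a high thoracic level can cut them off from descending control by the brain, while the vagal supply bypasses the cord. Endurance exercise draws on hepatic glucose output and fat oxidation and is known to alter the expression of metabolic genes in liver. The deposited table named genes by Ensembl identifier only, and 0 of its 24613 identifiers matched the reference table at hand, which held 47357 genes. Lists of metabolic, stress and cell type genes, the check of the liver label against hepatocyte markers, and the sequences of the genes were therefore not analysed here. Genes are given below by identifier, with no statement of what they encode. In bulk tissue, fewer cells of a type and less RNA per cell cannot be told apart.

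Between the livers of swimming and uninjured rats, 1 gene passed the test, ENSRNOG00000057347, at 4.68-fold the uninjured level. Reads counted on genes came to between 26190364 and 36607354 per swimming rat (median 29307408) and between 31524480 and 36761953 per uninjured rat (median 33833818). Of 12564 genes with enough counts to be tested with edgeR's quasi-likelihood test, 1 had a Benjamini-Hochberg adjusted p under 0.05, which is 0.00796% of the genes tested, and it was higher in the swimming rats. No gene was called lower, and the next smallest adjusted p was 0.124. At an unadjusted p under 0.05 there were 1320 genes (10.5%), of which 788 (6.27%) were higher and 532 (4.23%) lower. DESeq2 called 200 genes, 115 of them higher, and the called gene was among them. The p-values measure the spread between these rats, which were housed in pairs, and the labels do not say which rats shared a cage.

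The sizes of the differences were small for most genes. The middle of the distribution of log2 fold changes lay at 0.01, with the quartiles at -0.16 and 0.21, and the percentiles 5 and 95 at -0.44 and 0.60. A total of 278 genes (2.21%) differed by at least 2-fold, 188 of them higher and 90 lower in the swimming rats. Levels did not overlap between the groups at 492 genes (3.92%), with 264 (2.1%) higher and 228 (1.81%) lower in the swimming rats. The share of genes with an unadjusted p under 0.05 was smallest among the genes with the least counts. With the genes divided by level into 5 bins of equal size, it was 6.17% in the lowest bin (median level 0.903 CPM, the unit of read counts scaled to a common library size) and 14.1% in the highest bin (median 94.5 CPM). The median log2 fold change was -0.05 in the highest bin and 0.06 in the second lowest. The plot of fold change by level shows the called gene and the 24 leading genes described further on against all genes tested.

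**Figure D1:**
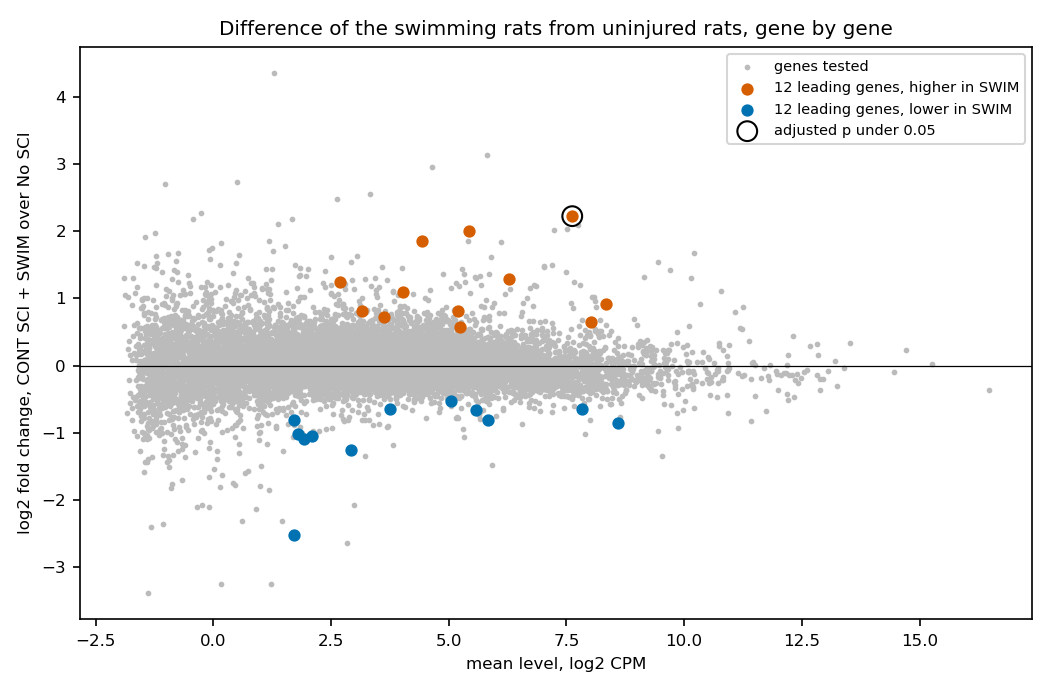
The log2 fold change of CONT SCI + SWIM over No SCI (vertical axis) is plotted against the mean level in log2 CPM (horizontal axis) for each of 12564 genes tested (grey). The 12 leading genes in each direction are coloured, and the ring marks the 1 gene with an adjusted p under 0.05, at a log2 fold change of 2.23.

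Over all genes, the groups were not separated beyond the spread among rats. Of the squared distance among the 9 livers, computed on log2(CPM + 1) over the genes tested, 18.2% lay between the groups, which an exact one-sided permutation test over all 126 relabellings gave p = 0.159. Of 9 runs that left out 1 rat each, 1 had a p under 0.05. It was the run without No SCI replicate 2, where the share was 26.9% (exact permutation p = 0.0357). The other runs gave exact permutation p-values from 0.143 to 0.304. No SCI replicate 2 had a swimming rat, replicate 4, as its nearest neighbour, and it was itself the nearest neighbour of swimming replicates 2 and 4. The other 3 swimming rats and the other 3 uninjured rats each lay nearest to a rat of their own group. The mean distance between a swimming and an uninjured liver was 52.8, with a range of 38.9 to 77.6 over 20 pairs. Swimming livers lay 51.0 apart on average (42.8 to 69.3, 10 pairs) and uninjured livers 48.1 (34.9 to 67.6, 6 pairs), so the 3 ranges overlapped widely.

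On principal components of the 9 livers, the first component (40.1% of the variance) ran across both groups. The second (18.3%) placed the swimming rats at 6.65, 3.82, 27.3, -1.24 and 19.8 in order of replicate number, and the uninjured rats at -11.4, -12.9, -17.3 and -14.7. The groups did not overlap on it, with swimming replicate 4 the closest to the uninjured rats and replicates 3 and 5 the farthest. Spread within the groups was of like size. The SD of log2(CPM + 1) had a median over genes of 0.238 in the swimming rats and 0.223 in the uninjured rats, and it was larger in the swimming rats for 54.9% of the genes.

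**Figure D2:**
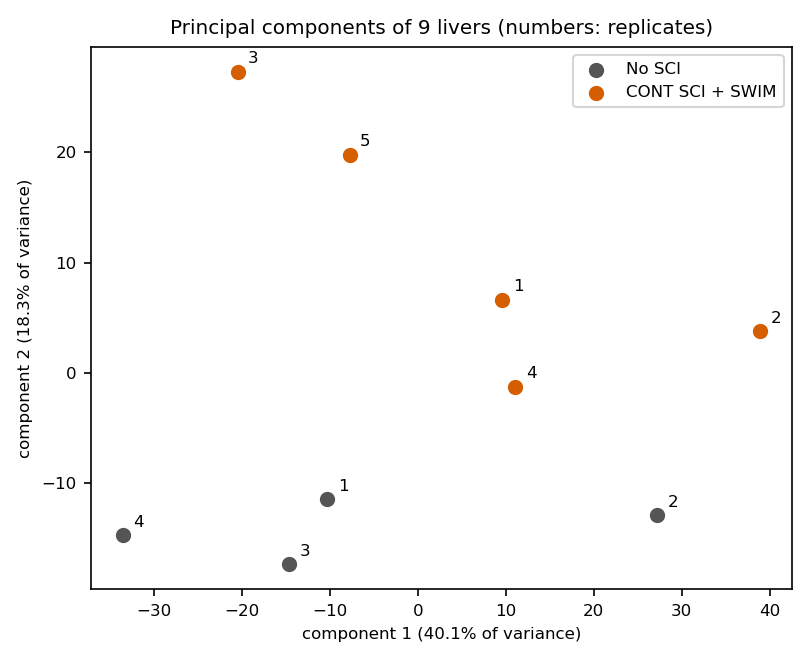
The 9 livers are plotted on principal components 1 and 2 of log2(CPM + 1), with the share of variance on each axis and replicate numbers beside the points. Both groups spread along component 1, and on component 2 all 4 No SCI livers lie at -11.4 or below while the lowest CONT SCI + SWIM liver lies at -1.24.

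Fewer genes were detected in the swimming rats. Thinned to the depth of the shallowest of the 9 libraries, 26190364 reads, a liver of a swimming rat had at least 1 count in 15035, 15148, 13648, 15031 and 14869 genes, and a liver of an uninjured rat in 15177, 15332, 15518 and 15317 genes. Every swimming rat lay below every uninjured rat, and replicate 3 stood far below the other 4. In the paper's alignment summary, replicate 3 also had the smallest share of uniquely mapped reads of the whole series. Swimming replicates 1, 4 and 5 had smaller shares there than every uninjured rat too, replicate 4 only just. Thinning evens out depth but not library quality, and whether quality bears on the genes detected was not tested. The means were 14746 ± 621.8 (SD, n = 5) and 15336 ± 140.0 (SD, n = 4), a difference of -590.1 genes (exact two-sided permutation p = 0.0317 over 126 relabellings). Without swimming replicate 3 the difference was -315.6 genes (exact permutation p = 0.0286, the smallest p that groups of 4 rats each allow). Leaving out an uninjured rat in place of it gave exact permutation p-values between 0.0893 and 0.161. Before thinning, 19 of 24613 genes had no count in any swimming rat and at least 1 in every uninjured rat, and none had the opposite pattern. The highest count among the 19 was 54. Those counts were not evened for depth, and the median depth was lower in the swimming rats (29307408 against 33833818 reads).

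The 1 gene called between the groups was ENSRNOG00000057347. In the swimming rats it stood at 218.7, 391.3, 203.9, 236.3 and 364.8 CPM, and in the uninjured rats at 64.0, 57.7, 62.9 and 59.0 CPM. The uninjured rats were tightly grouped, and the lowest swimming rat was far above the highest of them. Means were 283.0 ± 88.0 CPM (SD, n = 5) and 60.9 ± 3.00 CPM (SD, n = 4), with a log2 fold change of 2.23 (SE 0.22), that is 4.68-fold (edgeR adjusted p = 0.0042). It was called in 8 of the 9 fits that left out 1 rat each, and without No SCI replicate 3 the log2 fold change was 2.22 with an edgeR adjusted p of 0.0502.

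In contused rats without exercise the same gene lay between the uninjured and the swimming levels. The CONT SCI rats had 72.9, 125.3, 64.6 and 92.6 CPM, with 1 of them close to the highest uninjured rat and all of them below every swimming rat. Against the same 4 uninjured rats their log2 fold change was 0.54 (SE 0.19, edgeR adjusted p = 0.936). The direct comparison of swimming with unexercised contused rats gave 1.68 (SE 0.26, adjusted p = 0.0818 by edgeR), which missed the threshold although the groups did not overlap. In rats trained in shallow water walking the gene had 237.4, 129.1, 105.7, 147.9 and 139.8 CPM, and 1 of them reached the swimming range. The log2 difference of swimming over walking was 0.90 (SE 0.24, edgeR adjusted p = 0.782). After transection the 4 rats ranged from 120.4 to 273.6 CPM, all above the uninjured rats. In the In-Cage set, by contrast, all 15 rats were at 7.42 CPM or below (at most 169 counts), a level 7.78-fold below the lowest of the 22 Exercise rats, which had 57.7 CPM. The sets were different rats in different libraries, and a difference between sets cannot be told apart from one between their rats. Within the In-Cage set, contused over uninjured rats gave a log2 fold change of 1.14 (SE 0.47, edgeR adjusted p = 0.103).

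ENSRNOG00000021345 divided the swimming rats. Replicates 1 and 4 had 126.6 and 113.7 CPM, and replicates 2, 3 and 5 had 13.5, 26.6 and 15.3 CPM. The uninjured rats stood at 15.2, 16.3, 17.3 and 16.4 CPM, so 2 swimming rats were far above them and 3 were at or near their level, with a gap of 4.28-fold inside the swimming group. The log2 fold change of 1.86 (SE 0.68, edgeR adjusted p = 0.393) did not pass the test. In contused rats without exercise the same gene was at 129.2, 137.9, 121.4 and 133.6 CPM, and it was the only gene called there among 12482 tested (0.00801%), with a log2 fold change of 2.99 (SE 0.11, edgeR adjusted p = 3.57e-07). That call was lost when all 5 groups of the Exercise set shared 1 estimate of the spread (adjusted p = 0.726 by edgeR), with the log2 fold change at 3.00. Of the 2 high swimming rats, 1 lay inside the CONT SCI range and 1 just below it, and swimming against CONT SCI gave a log2 fold change of -1.14 (SE 0.64, adjusted p = 0.485 by edgeR). Of the walking rats, 4 lay between 118.9 and 286.5 CPM and 1 at 20.2 CPM, and the transected rats ranged from 118.2 to 284.6 CPM. All 15 In-Cage rats had high values, uninjured ones included, from 173.9 CPM upward. The low level was thus seen in the 4 No SCI rats, 3 swimming rats and 1 walking rat, and in no other liver of the series.

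ENSRNOG00000048576 was among the genes lower in swimming rats. It had 2.54, 3.21, 5.31, 5.28 and 5.28 CPM in the swimming rats and 13.01, 7.02, 9.63 and 12.0 CPM in the uninjured rats. No value was shared, although No SCI replicate 2 came close to the swimming range. The log2 fold change of -1.26 (SE 0.26) had an edgeR adjusted p of 0.154 and did not pass. It passed by DESeq2 (adjusted p = 0.00166) and with all groups of the set in 1 edgeR fit (adjusted p = 0.0297). Contused rats without exercise had 13.6, 20.97, 17.2 and 15.3 CPM, all above the uninjured rats, with a log2 fold change of 0.68 (SE 0.20, edgeR adjusted p = 0.754). Swimming against these rats gave a log2 fold change of -1.95 (SE 0.23, edgeR adjusted p = 0.0291), the only call among 12502 genes in that comparison (0.008%). The call held in 2 of the 9 fits that left out 1 rat each, with adjusted p-values from 0.0348 to 0.115 by edgeR and log2 fold changes from -2.04 to -1.81. In walking rats the gene ranged from 3.75 to 6.66 CPM, and swimming over walking was -0.31 on the log2 scale (SE 0.25, adjusted p = 0.796 by edgeR). In the In-Cage set the contused rats in tiny cages, at 2.31 to 10.4 CPM, also lay below the uninjured rats in standard cages, at 11.1 to 16.7 CPM (log2 fold change -0.94, SE 0.32, edgeR adjusted p = 0.066).

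ENSRNOG00000010746 was the first of the lower genes by unadjusted p. The swimming rats had 38.9, 40.3, 41.2, 44.3 and 34.9 CPM and the uninjured rats 64.0, 59.9, 84.7 and 73.7 CPM. All swimming rats were lower, in a narrow range well clear of the uninjured values. The log2 fold change was -0.81 (SE 0.13, edgeR adjusted p = 0.145), and it passed by DESeq2 (adjusted p = 2.64e-05) and with all groups in 1 edgeR fit (adjusted p = 0.0297). The unexercised contused rats were at 80.7, 64.8, 53.7 and 66.3 CPM, within or near the uninjured range, and swimming against them gave -0.73 on the log2 scale (SE 0.12, adjusted p = 0.0818 by edgeR). Walking rats had 49.5, 36.2, 31.1, 38.1 and 43.5 CPM, and the log2 difference of swimming over walking was 0.01 (SE 0.13, adjusted p = 0.989 by edgeR). Among transected rats it ranged from 45.7 to 75.4 CPM. The In-Cage comparison had the other sign, with a log2 fold change of 0.23 (SE 0.12, edgeR adjusted p = 0.173).

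**Figure D3:**
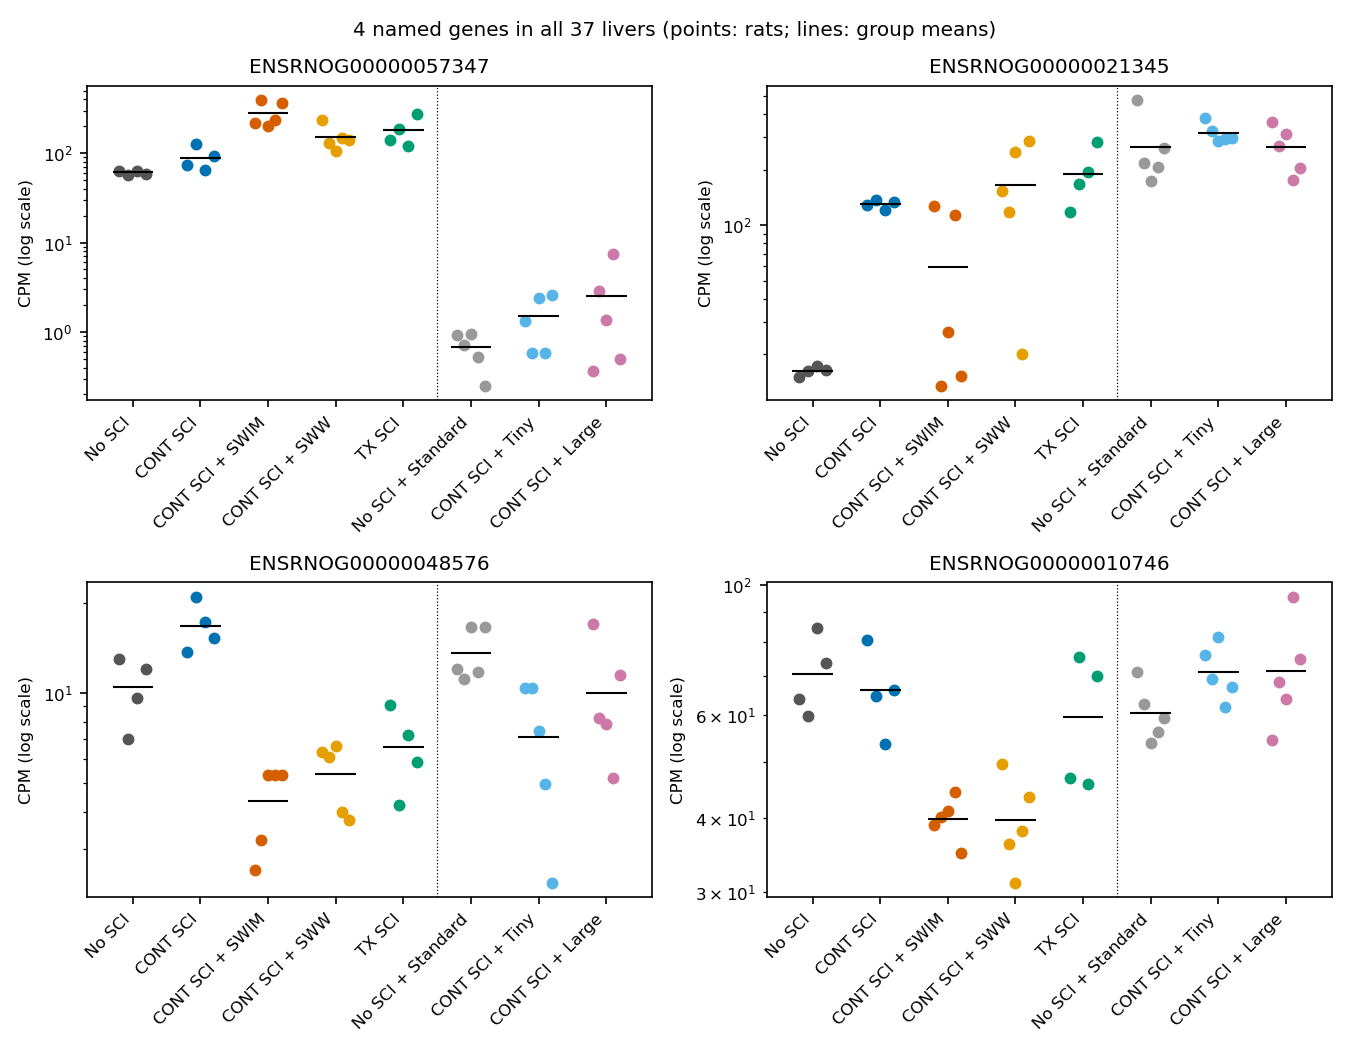
CPM (log axis) of 4 genes are shown for each of 37 livers by group, with a point for each rat and a line at the group mean, and a dotted line between the Exercise set (left) and the In-Cage set (right). ENSRNOG00000057347 is highest in CONT SCI + SWIM and at 7.42 CPM or below in every In-Cage rat, ENSRNOG00000021345 splits CONT SCI + SWIM into 2 high and 3 low rats, and at the other 2 genes every rat of both exercised groups lies below every No SCI rat.

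Genes that fell into separate levels inside a group were rare. A gap of at least 4-fold between neighbouring rats was found in the swimming group at 19 of 9320 genes with a mean of at least 100 counts (0.204%). A single rat stood apart at 16 of these genes, and at 3, the split gene above among them, at least 2 rats lay on each side. The counts were 17 of 9366 genes in No SCI, 12 of 9224 in CONT SCI and 14 of 9557 in CONT SCI + SWW.

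The 12 leading genes in each direction were then followed through the other groups. They had the smallest unadjusted p among genes averaging 100 counts or more whose swimming and uninjured values did not overlap, so their difference in that comparison is how they were chosen and is given as a description. Higher leading genes were 1.48-fold to 4.68-fold above the uninjured level (median log2 fold change 1.01), and lower ones 1.44-fold to 5.76-fold below it (median -0.83). For each rat, the median over the 12 genes of the log2 difference from the No SCI mean was taken. For the higher genes this was 0.77, 0.79, 1.15, 0.83 and 1.03 in swimming replicates 1 to 5, and for the lower genes -0.76, -0.80, -0.76, -0.70 and -0.72. The choice favours genes shifted alike in all 5 swimming rats, so nothing is read from how close these medians lie. The choice did not use the contused rats without exercise or the walking rats, although it did use the No SCI rats whose mean they are measured from.

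The values of the leading genes in contused rats without exercise are given as a description too, since genes chosen for a large difference in the swimming rats would be less extreme in any group that the choice did not use. Their medians by rat were 0.26 to 0.47 for the higher genes and -0.35 to 0.04 for the lower genes. Gene by gene, CONT SCI against the same uninjured rats gave a median log2 fold change of 0.35 for the higher genes, with 11 of 12 above 0, and -0.10 for the lower genes, with 11 of 12 below 0. None of the 24 passed in that comparison by edgeR, and DESeq2 called 63 of all genes there. An unadjusted p under 0.05 was found at 7 of the higher and 4 of the lower genes, and at 561 (4.49%) of all genes tested. All 7 higher genes were above the uninjured level, while of the 4 lower genes 3 were below it and 1 above it. That comparison and the one used for the choice share the 4 No SCI libraries. Swimming against CONT SCI, which shares the swimming libraries, gave medians of 0.64 and -0.69, of a sign that the choice of genes favours, and nothing is read from them. Over all genes tested there, 1638 (13.1%) had an unadjusted p under 0.05.

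Rats trained in shallow water walking lay near the swimming rats at the leading genes. Their medians by rat were 0.69 to 0.87 for the higher genes, reaching from just below the lowest swimming rat to within the swimming range. For the lower genes they were -0.57 to -0.92, on both sides of the swimming values. Swimming against walking gave a median log2 fold change of 0.22 for the higher genes and 0.04 for the lower genes. No gene of the 24, and none of 12525 genes tested in all (0%), had an edgeR adjusted p under 0.05, while 680 genes (5.43%) had an unadjusted p under 0.05 and DESeq2 called 14 genes. Among the higher leading genes 4 had an unadjusted p under 0.05, 3 with the higher level in swimming rats and 1 with the higher level in walking rats. None of the lower leading genes had one. A p that misses the threshold does not show that the exercises act alike. The map of leading genes by rat shows the walking columns beside the swimming ones.

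**Figure D4:**
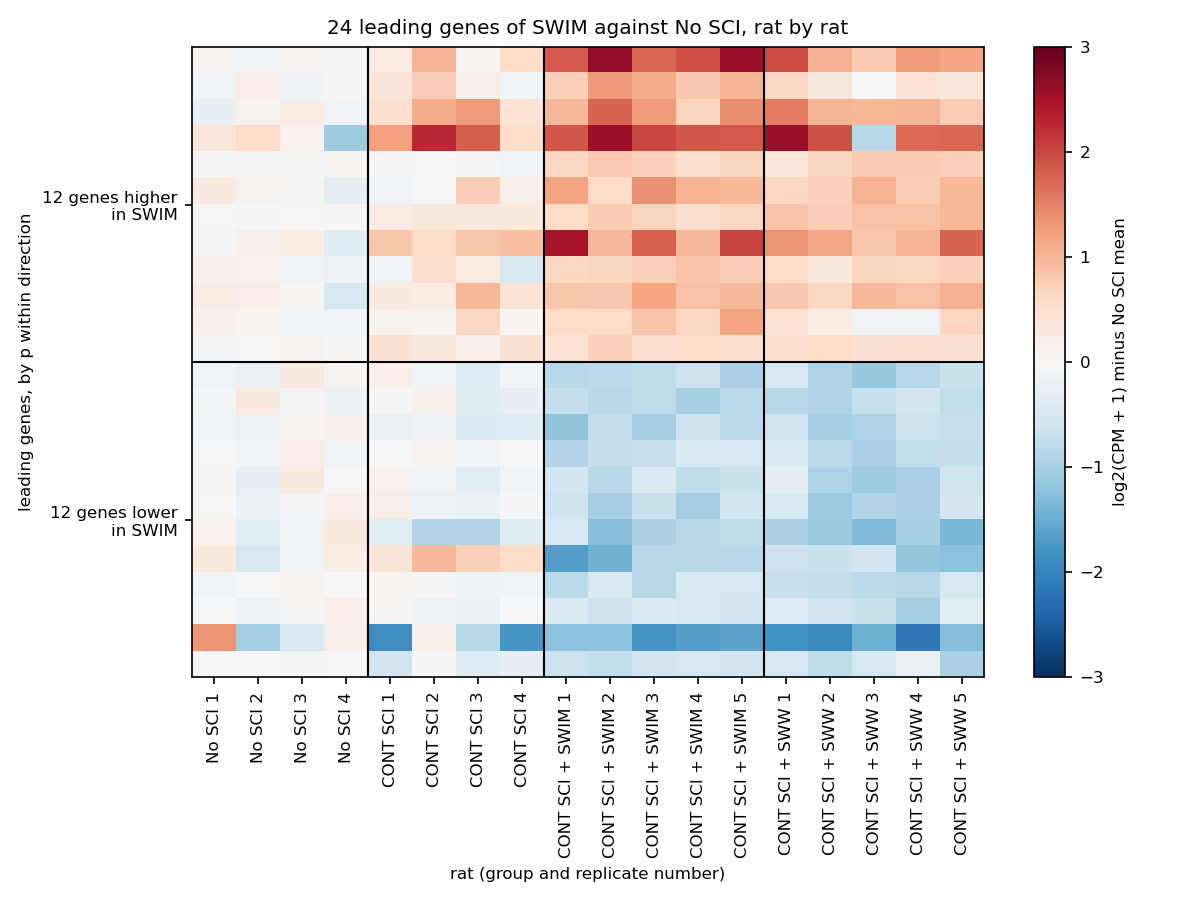
Each row is 1 of 24 leading genes, each column 1 of 18 rats, and colour gives log2(CPM + 1) minus the No SCI mean from -3 (blue) to 3 (red). The 12 upper genes had medians of 0.77 to 1.15 in CONT SCI + SWIM, 0.69 to 0.87 in CONT SCI + SWW and 0.26 to 0.47 in CONT SCI rats.

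The In-Cage set gave an independent comparison of contused with uninjured liver, in which cage size differed as well. There 1479 of 11859 genes (12.5%) were called by edgeR between CONT SCI + Tiny and No SCI + Standard, 644 (5.43%) higher and 835 (7.04%) lower. Single rats decided much of this count, which was 15 without No SCI + Standard replicate 4 and 2998 without replicate 1 of the same group. At the leading genes of the swimming comparison, 7 of the 12 higher genes lay above 0 and 5 below 0 in the In-Cage comparison, with 2 called, both in the lower direction. Of the 12 lower genes, 6 lay on each side of 0 and none was called.

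The genes that differed in the In-Cage set were read in turn in the swimming rats, which share no library with it. The 644 genes higher in contused In-Cage rats had a median log2 fold change of 0.0065 between swimming and uninjured rats, against 0.014 over all genes tested, and the list's median ranged from -0.07 to 0.08 when 1 rat at a time was left out. Of these genes, 329 (51.1%) were higher in the swimming rats against 52.0% of all genes. At an unadjusted p under 0.05, 32 (4.97%) were higher and 15 (2.33%) lower, against 6.27% and 4.23% of all genes, and none was called by edgeR. At that list the swimming rats stood at -0.02, -0.20, 0.08, 0.00 and 0.13 as medians of log2 difference from the No SCI mean. The uninjured rats spread from -0.28 to 0.21, around every swimming rat. The list itself shrank to 29 and 34 genes when it was called without CONT SCI + Tiny replicate 1 or 3, and its median was then 0.15 and 0.14.

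The 835 genes lower in contused In-Cage rats leaned the other way in the swimming comparison. Of 833 that could be tested there, 623 (74.8%) were higher in the swimming rats, with a median log2 fold change of 0.18. At an unadjusted p under 0.05, 114 (13.7%) were higher and 26 (3.12%) lower, against 6.27% and 4.23% of all genes, and none was called by edgeR. By rat, the medians were 0.15, 0.34, 0.07, 0.23 and 0.03 in the swimming rats and 0.14, 0.28, -0.13 and -0.30 in the uninjured rats. All 5 swimming rats were above 0, yet 2 of the 4 uninjured rats were too and the groups overlapped. Without No SCI replicate 2, the highest uninjured rat, the median log2 fold change of the list was 0.33, without No SCI replicates 3 or 4 it was 0.11 and 0.07, and without swimming replicate 2 it was 0.12. CONT SCI against the same uninjured rats gave a median of 0.09 with 75.03% of the list higher, and -0.09 with 25.5% higher for the other list. Swimming over CONT SCI gave 0.08 for either list.

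**Figure D5:**
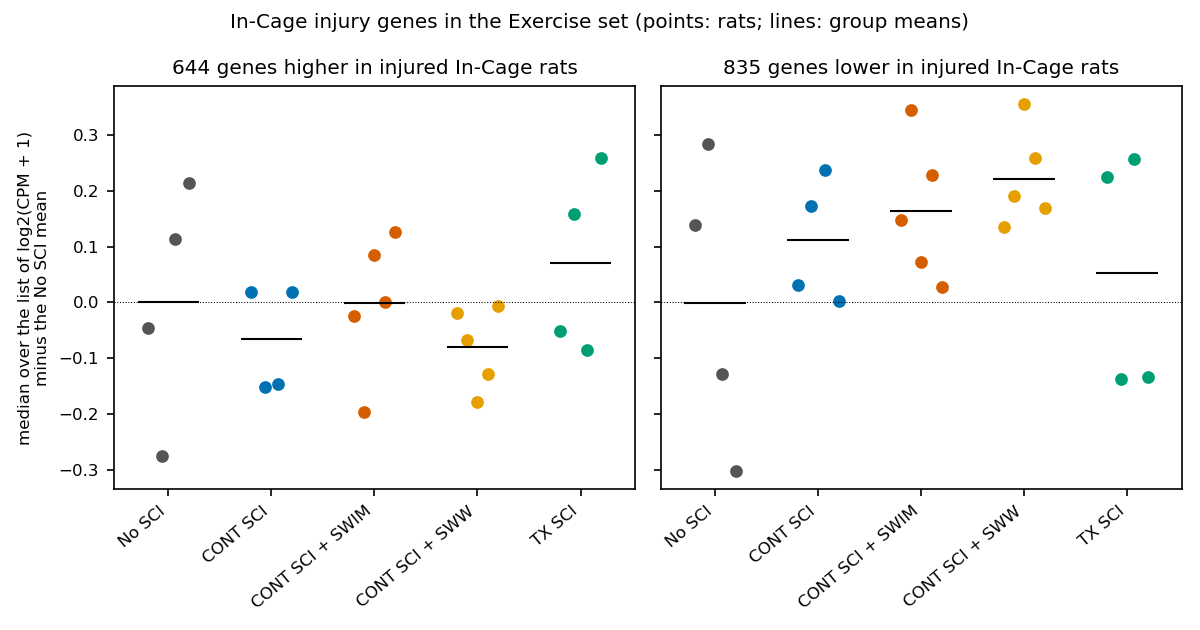
For each Exercise rat, the median over a gene list of log2(CPM + 1) minus the No SCI mean is plotted by group (lines: group means), for the 644 genes higher (left) and the 835 genes lower (right) in contused In-Cage rats. The No SCI rats span -0.28 to 0.21 and -0.30 to 0.28, and the CONT SCI + SWIM rats lie within or close to these ranges in both panels.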

How the data were processed

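Poly(A) RNA of rat liver was sequenced as single-end reads. The authors checked reads with FastQC 0.10.1, aligned them to rn6 with STAR and counted them per Ensembl gene with HTSeq by strand, leaving out mitochondrial genes, and deposited raw counts of 24613 genes in 37 samples. All columns were mapped to samples by title. Levels are CPM after TMM scaling over all 37 libraries.

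Groups were compared with edgeR 4.0.16 in R 4.3.3 (TMM, filterByExpr with minimum count 10 and minimum total 15, robust quasi-likelihood F test, Benjamini-Hochberg adjustment over all genes tested, call at 0.05), on the rats of the 2 groups alone. The SE is the size of the log2 fold change divided by the square root of F. Log values used a pseudocount of 1. Single values were tested by exact permutation over rats. No pair of libraries within either group was alike within sampling noise (lowest reduced chi-square 54.4), so rats rather than depth limit precision for well-counted genes. Scripts were tested on simulated data.

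Named genes were those called in SWIM against No SCI, CONT SCI against No SCI or SWIM against CONT SCI, filled to 2 per direction from the 12 leading genes per direction. The rule also asked for a gene symbol and for list members, which could not be applied because no identifier matched. The groups, lists and rules were chosen with earlier results of these data known. Alternatives were DESeq2 1.42.0, RLE normalization, no filter, all groups of a set in 1 fit, a replicate block, leaving out each rat and, for the separation, vst, 500 genes or scaled genes. Added after seeing the data were the gene counts without thinning, the In-Cage lists of 200 genes per direction or without 1 In-Cage rat, and the leave-one-out values of the thinned counts. Reads and sequences were not used here.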

Additional observations from a re-analysis of the deposited data

Results flagged for a closer look

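Values of each group of 4 or 5 rats were tested for 1 far rat by Dixon's test, which chance flags in about 1 of 20 groups, and 2 of 26 were flagged. Swimming replicate 3 had the fewest genes with a count at the common depth, 13648 against 14869 in the next swimming rat, a gap of 0.814 of the group's range. The paper's alignment summary gives that library the smallest share of uniquely mapped reads of the series. It also gives swimming replicates 1, 4 and 5 smaller shares than every uninjured rat. Without swimming replicate 3 the swimming rats still had fewer genes than the uninjured rats, with a difference of -315.6. No SCI replicate 3 had the largest share of counts in its 10 top genes, 25.6% against 24.2% in the next uninjured rat, while the swimming rats ranged from 22.0% to 25.7%. Without No SCI replicate 3, ENSRNOG00000057347 missed the threshold, at an edgeR adjusted p of 0.0502. Leaving out No SCI replicate 1, 2 or 4 gave edgeR adjusted p-values of 0.0442, 0.0252 and 0.039. Whether the flagged share bears on the missed call was not tested.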

How the results depend on the processing

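The count of genes called between swimming and uninjured rats was 1 by edgeR. It was 200 by DESeq2, 49 with all groups of the set in 1 fit and 7 with a replicate block, and 0 to 9 with 1 rat left out (0 without No SCI replicate 3, 9 without swimming replicate 4, 2 without No SCI replicate 4). RLE normalization and no filter gave 1 each. CONT SCI against No SCI gave 63 by DESeq2, 3 with no filter, 0 in 1 fit, 13 with the block and 1 to 9 with 1 rat left out. Swimming against CONT SCI gave 254, 10 and 7 by DESeq2, in 1 fit and with the block, and 0 to 2 with 1 rat left out, 0 without swimming replicates 2, 3, 4 or 5 or CONT SCI replicates 3 or 4. Swimming against walking gave 14 by DESeq2 and 0 to 1 with 1 rat left out, and the In-Cage comparison 2523 by DESeq2, 899 in 1 fit and 15 to 2998 with 1 rat left out. The separation ranged from 16.4% to 26.9% with 1 rat left out, highest without No SCI replicate 2. With the 200 leading In-Cage genes per direction, the medians in swimming against uninjured rats were 0.04 and 0.20. Without thinning, the difference in genes detected was -731.3 (exact permutation p = 0.0317). The cause of these changes was not tested. No named gene changed direction in any alternative run. Same-numbered rats deviated together by over 0.1 in 1 of 4 pairs (correlations -0.18 to 0.60). Of the 4 uninjured rats, 1 correlated best with the swimming rat of its own number. No pairing by number was therefore assumed, although 4 pairs are too few to exclude one.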
